A study of Rattus norvegicus with 8 samples.

Results

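Fibroblast growth factor 9 (FGF9) was given to rat myelinating cultures for 24 h or for 10 days, and the early effect was set against the sustained effect. The quantity described is a difference of differences, the FGF9 effect at 10 days minus the FGF9 effect at 24 h, each taken within same-numbered replicates. It uses 8 of the 8 arrays of the series and covers 14506 named genes. The 4 groups, of 2 arrays each, were untreated cultures collected at 24 h or at 10 days, and cultures given human FGF9 protein at 100 ng/ml and collected at the same times. All cultures were made from the spinal cords of E15.5 Sprague-Dawley rat embryos, cleared of meninges, and total RNA of each whole culture was measured on a Rat Gene 1.0 ST array. The cultures mix neurons with glia, so a value is an average over cell types, and fewer cells of a type and less RNA per cell cannot be told apart. The controls are labelled untreated, and nothing given with them says whether they received the vehicle. Nothing in the labels says that replicates were separate culture preparations, and the p-values then reflect only how far arrays spread, which may be technical.

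The labels name the source as neurosphere-derived astrocytes in one field and as myelinating culture in others. Marker genes were set against the median gene of each control array: 35 of 38 measured neuronal genes, 25 of 31 astrocyte genes, 14 of 26 myelin genes and 12 of 18 oligodendrocyte precursor genes were above it in all 4 control arrays, against 6202 of all 14506 genes. The same held for 12 of 33 microglial, 5 of 26 fibroblast and pericyte, 2 of 12 Schwann cell and 0 of 17 endothelial genes. The arrays thus carried neuronal and oligodendrocyte genes, which goes against a source of astrocytes alone. Within a time the number joins a control and an FGF9 array whose names share a prefix: CL1 for 24 h pair 1, CL2 for 24 h pair 2 and 10-day pair 1, and AA1 for 10-day pair 2. The AA1 arrays stood apart, with correlations of 0.889 to 0.933 to the other arrays against 0.956 to 0.988 among those others, and 0.966 to each other. For this reason differences are also given within CL2, which holds 1 pair of each time and has no replicate, for the genes that passed and wherever that value turned or moved by over 1.5 times a printed difference. Values are on a log2 scale, on which 1 unit is a 2-fold change, and are listed for pair 1 and then pair 2.

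FGF9 is a secreted growth factor that signals mainly through the receptors Fgfr2 and Fgfr3, both found on glia. A bound receptor activates the RAS and ERK kinases, and ERK raises the ETS factors Etv4 and Etv5, cyclin D1 and its own inhibitors, the Sprouty, Spred and dual-specificity phosphatase proteins. In the oligodendrocyte lineage FGF signalling is known for keeping precursors dividing, and in astrocytes for changing their shape and gene expression.

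The difference of effects passed in 7 of the 14506 genes (limma with Benjamini-Hochberg adjustment over all genes, adjusted p under 0.05), which is 0.0483% of those tested. All 7 had a higher FGF9 effect at 10 days than at 24 h, and 0 (0%) had a lower one. At an unadjusted p under 0.05, 1099 genes (7.58%) had the higher effect at 10 days and 767 (5.29%) the lower one, so most of what follows is description below the threshold. With all 29214 features in one adjustment 0 passed (smallest adjusted p 0.0843, 3274 at an unadjusted p under 0.05). With no replicate block the same comparison passed in 0 genes, with 276 at an unadjusted p under 0.05. With the pair as a random block it passed in 10 genes, 9 higher and 1 lower, among them 6 of the 7. The count rests on single pairs: it was 1 without 24 h pair 1, 0 without 24 h pair 2, 322 without 10-day pair 1 (275 higher and 47 lower) and 9 without the AA1 pair, of which 1, 0, 7 and 5 were among the 7. The standard error of a difference had a median of 0.217 and its 95% interval reached 0.533 to either side in the median, and the smallest difference that passed was 2.52.

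Each time taken alone gives the frame for the classes. The 24 h effect passed in 0 genes (1800 at an unadjusted p under 0.05, and 1 gene with a random block), and the 10-day effect in 933, of which 453 rose (3.12%) and 480 fell (3.31%). Of those 933, 671 had a 24 h effect of the same sign in both pairs and 99 had one of the opposite sign in both pairs. The mean of both effects passed in 940 genes, 448 higher (3.09%) and 492 lower (3.39%). These counts also rest on single pairs. Without 24 h pair 1, 24 h pair 2, 10-day pair 1 or the AA1 pair in turn, the 10-day effect passed in 469, 469, 1506 and 569 genes, the mean effect in 187, 48, 1814 and 1176, and the 24 h effect in 0, 0, 237 and 237. Across all 14506 genes the effects at the 2 times correlated at r = 0.424, against 0.52 between the 24 h pairs and 0.547 between the 10-day pairs, as a description over genes that share arrays. By the classes used here 5 of the 7 genes were late only, 1 grew, 1 was opposite and 0 were early only. Early only and late only need an effect of at least 1 at the responding time and under 0.5 at the silent time. Genes that grew or were opposite need an effect of at least 0.5 at each time. A further 373 genes passed for the mean effect but not for the difference, with all 4 pairs of one sign and at least 0.5 at each time, 229 higher (1.58%) and 144 lower (0.993%); without the same pairs in turn that class held 171, 38, 487 and 448 genes.

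**Figure D1:**
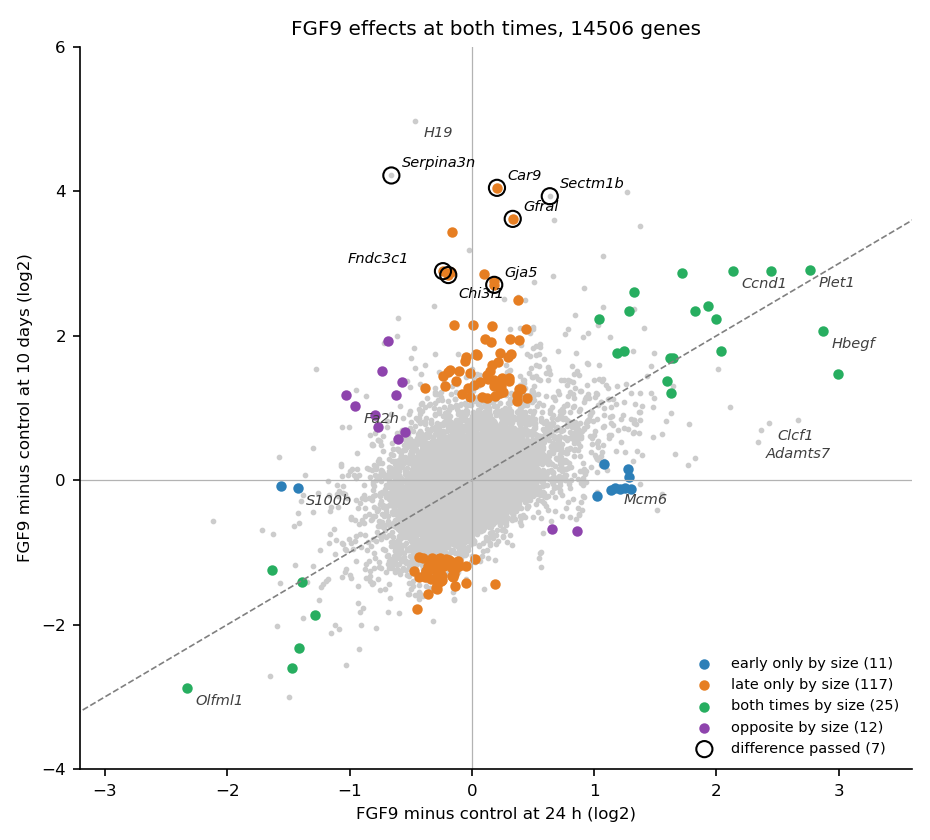
Each point is a gene, with its FGF9 effect at 24 h on the x axis and at 10 days on the y axis (log2, mean of 2 pairs); the dashed line marks equal effects. Ringed points are the 7 genes whose difference passed, all far above the line, and colours mark classes by size alone: 11 early only, 117 late only, 25 at both times and 12 opposite.

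In all 7 genes that passed, the mean of the 10-day FGF9 arrays was the highest of the 4 groups. Serpina3n, which blocks serine proteases and marks reactive astrocytes, stood at 5.99 and 6.93 in the 24 h controls, 5.80 and 5.80 with FGF9 for 24 h, 5.52 and 5.16 in the 10-day controls and 9.57 and 9.54 with FGF9 for 10 days. The 10-day FGF9 arrays were above all 6 others, and at 24 h both FGF9 arrays were below their own controls. Its 10-day effect was 18.6-fold and the difference of effects 4.88 ± 0.34 (SE, adjusted p = 0.034), or 5.19 within CL2. Chi3l1, a chitinase-like glycoprotein also secreted by reactive astrocytes, was at 7.32 and 8.40 in the 24 h controls, 7.40 and 7.93 with FGF9 for 24 h, 9.52 and 10.25 in the 10-day controls and 12.43 and 13.02 with FGF9 for 10 days. It was already higher in the 10-day controls than in any 24 h array, and higher again with FGF9, with a difference of effects of 3.03 ± 0.24 (adjusted p = 0.0397) and 3.38 within CL2.

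Car9, the cell-surface carbonic anhydrase induced by low oxygen, stood at 5.52 and 5.50 in the 24 h controls, 5.44 and 5.99 with FGF9 for 24 h, 5.81 and 5.28 in the 10-day controls and 10.12 and 9.07 with FGF9 for 10 days. The 6 other arrays lay close together and the 10-day FGF9 arrays far above them, a 16.6-fold effect at 10 days with a difference of 3.84 ± 0.29 (adjusted p = 0.034) and 3.81 within CL2. Gfral, the receptor of the stress hormone GDF15, was at 5.47 and 6.42 in the 24 h controls, 5.83 and 6.72 with FGF9 for 24 h, 5.14 and 6.23 in the 10-day controls and 8.89 and 9.72 with FGF9 for 10 days. Pair 2 exceeded pair 1 in every group, and within each pair the FGF9 array was the higher, slightly at 24 h and by 12.3-fold at 10 days. Its difference was 3.28 ± 0.20 (adjusted p = 0.034), and 3.45 within CL2.

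Gja5, the gap junction protein connexin 40, stood at 6.94 and 6.36 in the 24 h controls, 7.17 and 6.49 with FGF9 for 24 h, 5.98 and 6.15 in the 10-day controls and 8.67 and 8.88 with FGF9 for 10 days. Both 24 h pairs moved by under 0.5 while both 10-day FGF9 arrays were above every other array, with a difference of 2.52 ± 0.18 (adjusted p = 0.034) and 2.55 within CL2. Fndc3c1, a fibronectin type III domain protein, was at 6.26 and 5.76 in the 24 h controls, 6.28 and 5.27 with FGF9 for 24 h, 4.47 and 6.63 in the 10-day controls and 7.18 and 9.71 with FGF9 for 10 days. Its 10-day pairs started from controls more than 2 log2 units apart and moved by 2.71 and 3.08, so this call depends on reading effects within pairs. The difference was 3.13 ± 0.26 (adjusted p = 0.0397), and 3.20 within CL2. Sectm1b, a secreted and transmembrane protein, was the member that grew, at 5.34 and 6.09 in the 24 h controls, 6.02 and 6.68 with FGF9 for 24 h, 5.32 and 5.55 in the 10-day controls and 9.47 and 9.27 with FGF9 for 10 days. Both 24 h pairs were higher with FGF9 by over 0.5 and both 10-day pairs by over 3, a difference of 3.30 ± 0.22 (adjusted p = 0.034) and 3.56 within CL2.

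**Figure D2:**
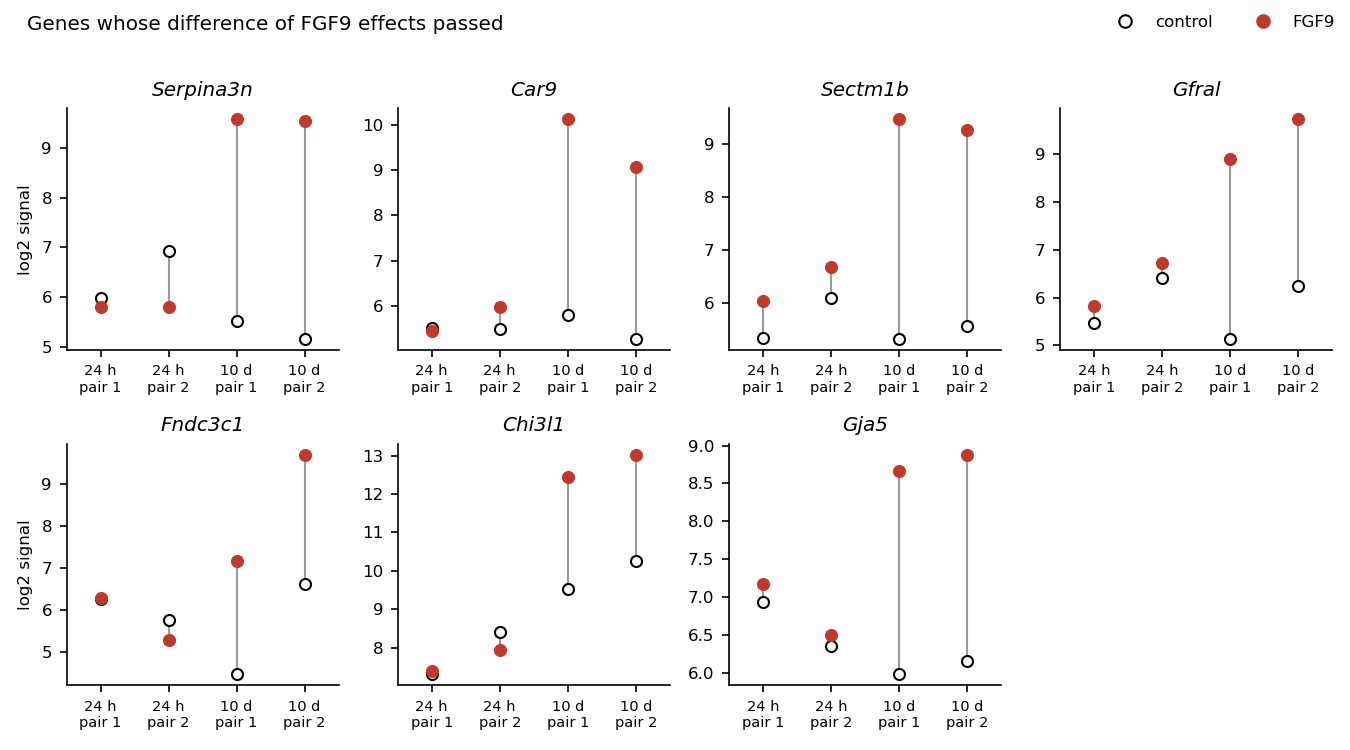
Log2 signal of the 7 genes whose difference of effects passed, with 1 open circle (control) and 1 filled circle (FGF9) per pair, joined by a line. In each panel the lines are short at 24 h and long at 10 days, and in Serpina3n the 24 h lines point down.

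Serpina3n, Chi3l1 and Lcn2 are known targets of STAT3, the factor activated by interleukin-6 family cytokines, so promoters were searched for its word, TTCNNNGAA, which reads alike on both strands. It was found in the 250 bases before the start of 3 of the 7 genes (42.9%), of 4 of 29 reactive astrocyte genes with a promoter (13.8%), and of 792 of all 11968 promoters (6.62%). The 3 promoters, from RefSeq (GRCr8), are shown 5′ to 3′ with the word in capitals; a match describes the letters and is not evidence of binding. The holders were Serpina3n, Gfral and Fndc3c1; these letters were not in the window of Chi3l1 or of Lcn2. They lie at chr6:129088142-129088391 (+ strand), chr8:85843706-85843955 (- strand) and chrX:75619194-75619443 (- strand).
Serpina3n: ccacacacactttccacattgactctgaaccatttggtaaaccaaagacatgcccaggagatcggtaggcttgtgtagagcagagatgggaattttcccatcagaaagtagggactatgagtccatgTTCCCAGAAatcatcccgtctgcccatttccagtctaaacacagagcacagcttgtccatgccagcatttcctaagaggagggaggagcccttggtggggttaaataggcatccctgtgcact
Gfral: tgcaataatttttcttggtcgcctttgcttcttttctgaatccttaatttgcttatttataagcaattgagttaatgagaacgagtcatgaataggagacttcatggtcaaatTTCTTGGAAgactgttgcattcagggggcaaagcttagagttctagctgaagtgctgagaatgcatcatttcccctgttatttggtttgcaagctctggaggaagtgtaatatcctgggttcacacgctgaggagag
Fndc3c1: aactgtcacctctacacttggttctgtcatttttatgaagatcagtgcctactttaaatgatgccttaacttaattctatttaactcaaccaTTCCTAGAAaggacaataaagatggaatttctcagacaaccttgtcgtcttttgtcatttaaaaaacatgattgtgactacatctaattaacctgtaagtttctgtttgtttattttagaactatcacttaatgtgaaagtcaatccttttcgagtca

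A further 6 genes had an adjusted p for the difference between 0.05 and 0.1, and 3 of them, Agmo, Crym and Lingo3, are named after their values were seen. Lcn2, the iron-trafficking acute phase protein lipocalin 2, stood at 8.01 and 8.12 in the 24 h controls, 7.77 and 8.02 with FGF9 for 24 h, 8.05 and 7.50 in the 10-day controls and 10.92 and 11.52 with FGF9 for 10 days. The 10-day FGF9 arrays were above all others, and the difference was 3.61 ± 0.38 (adjusted p = 0.0965). Etv4, the ETS factor downstream of ERK, was at 6.91 and 6.89 in the 24 h controls, 7.20 and 7.46 with FGF9 for 24 h, 6.03 and 5.84 in the 10-day controls and 8.37 and 8.50 with FGF9 for 10 days. Within every pair the FGF9 array was higher, by less at 24 h than at 10 days, with a difference of 2.07 ± 0.22 (adjusted p = 0.0965). Lingo3, a leucine-rich repeat membrane protein, had effects of 0.66 and 2.82 at the 2 times, Crym, a thyroid hormone binding protein, -0.61 and 1.99, and Agmo, which cleaves ether lipids, -0.73 and 1.51. The sixth, Fa2h, is described with the oligodendrocyte genes.

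Without a test, size alone gives larger classes, in which both pairs move by at least 1 at a time that responds and by under 0.5 at a time that does not. Late only then held 117 genes, 61 higher (0.421%) and 56 lower (0.386%), and early only held 11, 9 higher (0.062%) and 2 lower (0.0138%). A move of at least 1 in both pairs was seen in 96 genes at 24 h and in 306 at 10 days, and the 25 genes that did so in one direction at both times are 26% of the first and 8.17% of the second, 19 of them higher (0.131%) and 6 lower (0.0414%). These classes were added after the data were seen. The genes of 32 lists (929 distinct genes measured) are described next by their medians and counts; over all genes every such median was within 0.02 of 0. Among all list genes Serpina3n and Car9 alone passed for the difference, so no list is said to differ between times.

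ERK feedback and FGF target genes were higher with FGF9 at both times. Of 25 measured, 14 rose at 10 days and 18 passed for the mean effect, all higher, against 3.12% and 3.09% of all genes. The both-times class held 15 of them, all higher, against 1.58%. In 19 the FGF9 array was the higher in all 4 pairs, as in 2066 of all genes (14.2%). The list medians were 0.73 at 24 h and 0.84 at 10 days, and the median difference was 0.27 (0.15 within CL2). Ccnd1, cyclin D1, which drives entry into the cell cycle, stood at 9.96 and 9.80 in the 24 h controls, 11.62 and 12.40 with FGF9 for 24 h, 9.25 and 8.51 in the 10-day controls and 11.51 and 12.05 with FGF9 for 10 days. Every FGF9 array exceeded every control, with a mean effect of 2.51 (adjusted p = 0.0143) and a difference of 0.76 ± 0.50. The 95% interval of the difference ran from -0.46 to 1.98, and its value was -0.36 within CL2.

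Spry4, a Sprouty inhibitor of receptor signalling, was at 7.42 and 8.05 in the 24 h controls, 8.54 and 9.41 with FGF9 for 24 h, 7.24 and 7.52 in the 10-day controls and 8.74 and 9.60 with FGF9 for 10 days. Trib1, a pseudokinase scaffold that lowers C/EBP factors, was at 6.10 and 6.11 in the 24 h controls, 7.83 and 8.04 with FGF9 for 24 h, 6.53 and 6.22 in the 10-day controls and 8.52 and 8.93 with FGF9 for 10 days. Both rose in the mean of the times (adjusted p = 0.0143 and 0.0117), and their differences of 0.55 ± 0.26 and 0.53 ± 0.28 had 95% intervals of -0.08 to 1.19 and -0.17 to 1.22, which hold 0 and also changes of about 1 unit. Within CL2 these differences were 0.14 and 0.07. Etv5, the partner ETS factor of Etv4, had effects of 0.84 at 24 h and 2.29 at 10 days (difference 1.45 ± 0.28, adjusted p = 0.237). Spred1, an inhibitor of RAS signalling, had 0.24 and 1.23 (difference 0.99 ± 0.19, adjusted p = 0.237). Dusp5, a nuclear ERK phosphatase, went the other way in size, 1.33 and then 0.84, and the difference did not pass (adjusted p = 0.405). Of 25 AP-1, EGR and other immediate early genes, 4 passed for the mean effect, all higher, against 3.09% of all genes. Their median difference was 0.08 (-0.05 within CL2).

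Among ligands of the EGF and interleukin-6 families the largest effects at both times belonged to Hbegf, an activator of the EGF receptor, at 8.28 and 8.13 in the 24 h controls, 10.99 and 11.17 with FGF9 for 24 h, 8.10 and 7.81 in the 10-day controls and 10.75 and 9.28 with FGF9 for 10 days. Every FGF9 array was above every control, the mean effect was 2.47 (adjusted p = 0.0124) and the difference -0.81 ± 0.40 (95% interval -1.79 to 0.16, and -0.39 within CL2). Clcf1, a ligand of the ciliary neurotrophic factor receptor, stood at 5.97 and 5.59 in the 24 h controls, 7.90 and 8.51 with FGF9 for 24 h, 5.67 and 5.76 in the 10-day controls and 6.61 and 6.41 with FGF9 for 10 days. Il11, interleukin 11, was at 5.46 and 5.55 in the 24 h controls, 7.43 and 8.91 with FGF9 for 24 h, 5.42 and 5.65 in the 10-day controls and 7.06 and 5.69 with FGF9 for 10 days. In both genes the 24 h FGF9 arrays were above all 4 controls by over 1.5 units, while the 10-day FGF9 arrays lay closer to the controls and, for Il11, apart from each other. The differences were -1.63 ± 0.35 (adjusted p = 0.237) and -1.83 ± 0.64 (adjusted p = 0.329), so neither passed. Lif, another cytokine of this family, had effects of 1.16 and 0.76 (difference -0.40 ± 0.40, adjusted p = 0.74), and the difference was 0.15 without 24 h pair 2 and -0.67 within CL2. Socs3, the feedback inhibitor of this family's receptors, had an effect of 0.56 at 24 h and 1.85 at 10 days, when it rose (adjusted p = 0.0173). Over the 28 EGF and interleukin-6 family genes, 6 passed for the mean effect as higher and 1 as lower, against 3.09% and 3.39% of all genes. The medians were 0.07 and 0.43. In 12 both 10-day effects were above both 24 h ones and in 6 below, against 23.3% and 21.5% of all genes. The 6 of 28 below is near the share over all genes.

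Ccl2, a monocyte-attracting chemokine, was at 8.40 and 9.30 in the 24 h controls, 9.29 and 12.45 with FGF9 for 24 h, 8.70 and 9.44 in the 10-day controls and 10.78 and 10.44 with FGF9 for 10 days. The effect was above 2 in the CL2 pair at 24 h and in 10-day pair 1, and about 1 in the other pairs, and the mean effect of 1.78 was just inside the threshold (adjusted p = 0.0498). Plet1, a surface protein of progenitor cells, had effects of 2.77 and 2.91. For Itga5, the fibronectin receptor subunit integrin alpha 5, they were 1.72 and 2.87, and both genes passed for the mean effect (adjusted p = 0.0188 and 0.0117). Genes lower at both times included Olfml1, an olfactomedin-like secreted protein, at 7.83 and 8.07 in the 24 h controls, 5.93 and 5.30 with FGF9 for 24 h, 8.23 and 10.09 in the 10-day controls and 5.72 and 6.85 with FGF9 for 10 days. Each FGF9 array was more than 1.8 units below its own control, a mean effect of -2.60 (adjusted p = 0.0117). Lix1 had a mean effect of -2.04 (adjusted p = 0.0117) and Omd, a keratan sulphate proteoglycan, of -1.87 (adjusted p = 0.0123).

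DNA replication genes were nearly all higher with FGF9 at 24 h. Their median effect was 0.81 at 24 h and 0.16 at 10 days, and the median difference was -0.72 (-0.95 within CL2). At 24 h 38 of 39 were higher in both pairs, as were 4606 of all genes (31.8%). In 31 of 39 both 10-day pair effects were below both 24 h ones, as in 3120 of all genes (21.5%), and in 0 of 39 were they above. The 10-day pairs were unlike, with medians of -0.11 in pair 1 and 0.41 in the AA1 pair. None of the 39 passed for the difference or for the 10-day effect. For the difference 22 had an unadjusted p under 0.05, all lower, against 5.29% of all genes. For the mean effect 14 passed, all higher, against 3.09%.

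Cdc45, a part of the replicative helicase, stood at 7.09 and 5.86 in the 24 h controls, 8.10 and 7.27 with FGF9 for 24 h, 6.17 and 5.61 in the 10-day controls and 5.82 and 5.72 with FGF9 for 10 days. Its 24 h FGF9 arrays were 1.01 and 1.41 above their controls, and its 10-day FGF9 arrays lay within 0.5 of theirs, with a difference of -1.34 ± 0.25 (adjusted p = 0.237). Mcm6, a subunit of the same helicase, was at 9.33 and 8.40 in the 24 h controls, 10.36 and 9.71 with FGF9 for 24 h, 8.27 and 7.02 in the 10-day controls and 7.78 and 7.30 with FGF9 for 10 days. Pcna, the sliding clamp of DNA polymerase, was at 11.04 and 10.03 in the 24 h controls, 11.81 and 11.05 with FGF9 for 24 h, 10.42 and 9.71 in the 10-day controls and 10.37 and 9.68 with FGF9 for 10 days. For both the 10-day controls and FGF9 arrays lay within 0.5 of each other in each pair, and the differences were -1.27 ± 0.30 and -0.93 ± 0.20 (adjusted p = 0.239 and 0.237). Effects of opposite sign in every pair were seen for Dut, which removes dUTP, with 0.62 and then -0.42, and for the primase subunit Prim1, with 0.87 and then -0.38, a turn found in 6 of the 39 and in 834 of all genes (5.75%). Uhrf1, which maintains DNA methylation, kept part of its effect, 1.77 at 24 h and 0.78 at 10 days, and passed for the mean effect (adjusted p = 0.0171).

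Mitosis and spindle genes were higher with FGF9 at both times. The medians over 44 genes were 0.94 at 24 h and 0.72 at 10 days. Higher in both 24 h pairs were 43, in both 10-day pairs 35 and in all 4 pairs 35, against 31.8%, 33.2% and 14.2% of all genes. Of these genes 22 passed for the mean effect, 7 for the 10-day effect and 20 were in the both-times class, all higher. Over all genes these shares were 3.09%, 3.12% and 1.58%. The pair medians were 0.88 and 0.99 at 24 h and 0.29 and 1.14 at 10 days, so the 10-day level rests on the AA1 pair, and the median difference of -0.15 was 0.24 without 10-day pair 1, -0.57 without the AA1 pair and -0.51 within CL2. Prc1, which bundles the microtubules of the late spindle, stood at 8.90 and 7.55 in the 24 h controls, 9.78 and 8.33 with FGF9 for 24 h, 8.12 and 7.14 in the 10-day controls and 9.27 and 8.70 with FGF9 for 10 days. Kif23, a kinesin of cytokinesis, was at 8.27 and 6.61 in the 24 h controls, 9.29 and 7.75 with FGF9 for 24 h, 6.82 and 5.99 in the 10-day controls and 7.58 and 7.02 with FGF9 for 10 days. In every pair the FGF9 array was the higher, both genes rose at 10 days (adjusted p = 0.0178 and 0.0276), and the differences were 0.53 ± 0.22 and -0.18 ± 0.20 (-0.37 within CL2 for Kif23). Nusap1, a spindle microtubule protein, had a larger effect at 10 days, 1.47 against 0.64. Plk4, the kinase that starts centriole duplication, had effects of 1.02 and -0.21 and was the mitosis list's member of the early only class by size. The replication list held 3 of the 11 early only genes by size, Cdc45 and Mcm6 among them. Others of this class, named after their values were seen, included the S phase cyclin Ccne2 (1.28 and 0.15) and the licensing inhibitor Gmnn (1.08 and 0.22).

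Replication genes are known targets of E2F factors, which act at the start of S phase, and mitosis genes of the complex that binds the cell cycle homology region, CHR. Promoters were searched on both strands for 4 E2F words, TTTGGCGC, TTTCGCGC, TTTCCCGC and TTTGGCGG, and for the CHR word TTTGAA (no E2F word holds the CHR word). An E2F word stood in the 250 bases before the start of 12 of 34 replication genes (35.3%), 1 of 37 mitosis genes (2.7%) and 324 of all 11968 promoters (2.71%). The CHR word stood in 18 of 37 mitosis genes (48.6%), 2 of 34 replication genes (5.88%) and 13.9% of all. The promoters of Cdc45 and Mcm6 and of Prc1 and Kif23, from RefSeq (GRCr8), show the E2F words and the CHR word in capitals; in Mcm6 the capitals hold 2 overlapping matches, 1 on each strand. They lie at chr11:95689928-95690177 (+ strand), chr13:42404353-42404602 (- strand), chr1:143659231-143659480 (+ strand) and chr8:71320585-71320834 (- strand), and were taken as the holders with the smallest p for the difference (replication) or the mean effect (mitosis).
Cdc45: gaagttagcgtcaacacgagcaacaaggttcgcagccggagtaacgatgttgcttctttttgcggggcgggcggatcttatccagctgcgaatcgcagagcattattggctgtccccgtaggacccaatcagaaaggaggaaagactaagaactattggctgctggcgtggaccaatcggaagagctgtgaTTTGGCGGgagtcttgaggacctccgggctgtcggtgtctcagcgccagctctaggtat
Mcm6: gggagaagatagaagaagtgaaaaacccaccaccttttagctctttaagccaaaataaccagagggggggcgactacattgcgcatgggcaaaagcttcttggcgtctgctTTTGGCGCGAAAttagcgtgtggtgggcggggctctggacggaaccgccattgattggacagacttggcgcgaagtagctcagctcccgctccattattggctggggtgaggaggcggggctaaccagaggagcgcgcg
Prc1: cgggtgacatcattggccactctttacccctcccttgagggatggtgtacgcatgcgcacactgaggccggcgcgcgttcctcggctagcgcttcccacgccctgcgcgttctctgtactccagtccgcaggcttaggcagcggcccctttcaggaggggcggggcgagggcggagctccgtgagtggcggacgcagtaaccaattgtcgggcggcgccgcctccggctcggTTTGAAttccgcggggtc
Kif23: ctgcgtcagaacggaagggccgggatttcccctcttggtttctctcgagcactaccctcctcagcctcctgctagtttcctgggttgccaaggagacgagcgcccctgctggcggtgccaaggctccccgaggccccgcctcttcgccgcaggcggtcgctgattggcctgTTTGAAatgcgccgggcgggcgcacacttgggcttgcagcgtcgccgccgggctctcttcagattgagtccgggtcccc

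Ribosome biogenesis genes were also mostly higher with FGF9 at 24 h. Their medians over 41 genes were 0.36 at 24 h and 0.14 at 10 days. Higher in both 24 h pairs were 37, against 31.8% of all genes. In 21 both 10-day effects were below both 24 h ones, against 21.5% of all genes. Nop56 and Fbl, both parts of the box C/D particle that modifies ribosomal RNA, had effects of 0.30 and 1.02 at 24 h and -0.43 and 0.29 at 10 days. Outside the growth lists, Adamts7, a matrix protease, had its larger effect at 24 h, at 6.97 and 6.34 in the 24 h controls, 9.16 and 8.82 with FGF9 for 24 h, 6.18 and 6.36 in the 10-day controls and 6.99 and 6.62 with FGF9 for 10 days. Both 24 h FGF9 arrays were over 2 units above their controls and both 10-day ones less than 1 unit above, with a difference of -1.80 ± 0.25 (adjusted p = 0.172) and -1.67 within CL2. Npy, the neurotransmitter peptide neuropeptide Y, had effects of 1.26 at 24 h and -0.14 at 10 days (difference -1.39 ± 0.30, adjusted p = 0.237), and Adamts9, another matrix protease, 0.88 and -0.46 (adjusted p = 0.237).

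**Figure D3:**
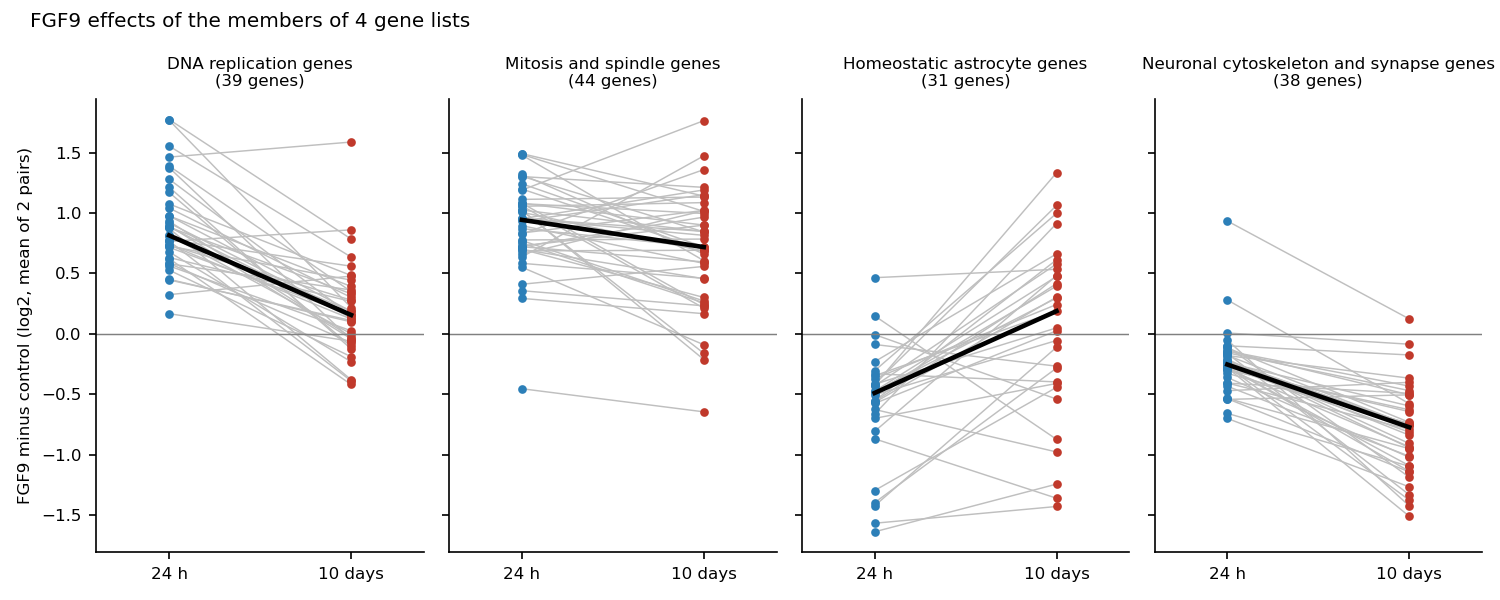
FGF9 effects of each member of 4 gene lists at 24 h and at 10 days (log2, mean of 2 pairs), with a grey line per gene and a black line for the median. The median goes from 0.81 to 0.16 for replication, from 0.94 to 0.72 for mitosis, from -0.49 to 0.19 for astrocyte and from -0.25 to -0.77 for neuronal genes.

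Homeostatic astrocyte genes, which serve transmitter uptake, ion and water balance and coupling, were mostly lower with FGF9 at 24 h. Of 31 measured, 26 were lower in both 24 h pairs and 10 in both 10-day pairs, against 4771 of all genes (32.9%) at 24 h and 4352 (30%) at 10 days, and their medians were -0.49 at 24 h and 0.19 at 10 days. In 21 both 10-day effects were above both 24 h ones, as in 3374 of all genes (23.3%), and in 12 the sign turned from lower to higher in every pair, as in 1131 of all genes (7.8%). The median difference was 0.77, and 0.78 within CL2. None passed for the difference, with 18 higher and 1 lower at an unadjusted p under 0.05, against 7.58% and 5.29% of all genes. At 10 days 3 rose and 4 fell, against 3.12% and 3.31%. For the mean effect 7 passed, all lower, against 3.39%.

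Slc4a4, the sodium bicarbonate cotransporter of astrocytes, stood at 11.95 and 10.96 in the 24 h controls, 11.52 and 10.06 with FGF9 for 24 h, 11.31 and 11.43 in the 10-day controls and 12.10 and 12.47 with FGF9 for 10 days. Both 24 h FGF9 arrays were below their controls and both 10-day ones above theirs, with a difference of 1.58 ± 0.24 (adjusted p = 0.187). Slc7a10, a small neutral amino acid transporter, was at 7.40 and 6.23 in the 24 h controls, 6.85 and 5.94 with FGF9 for 24 h, 6.34 and 7.95 in the 10-day controls and 7.33 and 9.63 with FGF9 for 10 days, and Mertk, a receptor for engulfment of debris, at 8.83 and 8.20 in the 24 h controls, 8.46 and 7.96 with FGF9 for 24 h, 8.59 and 8.09 in the 10-day controls and 9.49 and 9.18 with FGF9 for 10 days. The same turn of sign was seen in each of their pairs, and all 3 genes rose at 10 days (adjusted p = 0.0381, 0.0258 and 0.022). S100b, a calcium-binding protein of astrocytes, was instead early only by size, at 11.73 and 11.18 in the 24 h controls, 10.52 and 9.54 with FGF9 for 24 h, 12.15 and 11.70 in the 10-day controls and 11.85 and 11.77 with FGF9 for 10 days. It was over 1 unit lower with FGF9 in both 24 h pairs and within 0.5 of its control in both 10-day pairs, a difference of 1.31 ± 0.25 (adjusted p = 0.237). Gfap, the astrocyte intermediate filament, had effects of -1.26 and -0.18 (difference 1.08 ± 0.42, 95% interval 0.05 to 2.11, adjusted p = 0.369).

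A smaller set of astrocyte genes was lower at both times. Maob, the monoamine oxidase of astrocytes, stood at 10.54 and 11.13 in the 24 h controls, 9.15 and 9.25 with FGF9 for 24 h, 11.99 and 11.98 in the 10-day controls and 10.89 and 10.59 with FGF9 for 10 days. Every FGF9 array was over 1 unit below its own control, the mean effect was -1.44 (adjusted p = 0.0143) and the difference 0.39 ± 0.24 (95% interval -0.20 to 0.99, and 0.78 within CL2). Prodh, which starts proline breakdown, had a mean effect of -1.50 (adjusted p = 0.019) and the neurotensin receptor Ntsr2 of -1.11 (adjusted p = 0.0143). Over the 29 genes of amine and amino acid catabolism, 3 passed for the mean effect as lower and 1 as higher, against 3.39% and 3.09% of all genes. Their median difference was 0.14.

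Oligodendrocyte genes of 3 stages had median effects below 0 at 24 h and above 0 at 10 days, and 0 of them passed for the difference. For 26 myelin genes the medians were -0.36 and 0.23 and the median difference 0.66 (0.60 within CL2). For 18 genes of newly forming oligodendrocytes they were -0.15 and 0.56 with a median difference of 0.64 (0.67 within CL2), and for 18 precursor genes -0.01 and 0.37 with 0.60 (0.39 within CL2). Both 10-day effects were above both 24 h ones in 15, 12 and 11 of them, and below in 0, 0 and 1, against 23.3% and 21.5% of all genes. At 10 days 6, 4 and 4 rose and 0, 0 and 0 fell, against 3.12% and 3.31% of all genes. For the difference 12, 11 and 6 were higher at an unadjusted p under 0.05, against 7.58% of all genes. The myelin genes themselves were unlike each other: at 10 days 15 were higher in both pairs and 7 lower in both, against 33.2% and 30% of all genes.

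Fa2h, which hydroxylates the fatty acids of myelin lipids, stood at 9.75 and 7.30 in the 24 h controls, 8.79 and 6.34 with FGF9 for 24 h, 7.81 and 8.88 in the 10-day controls and 8.96 and 9.78 with FGF9 for 10 days. The controls lay more than 2 units apart at 24 h and more than 1 unit apart at 10 days, and the FGF9 array was about 1 unit lower within each 24 h pair and about 1 unit higher within each 10-day pair. The difference was 1.98 ± 0.20 (adjusted p = 0.093), and 2.11 within CL2. Pllp, the myelin proteolipid plasmolipin, had effects of -0.33 and 0.80, Ugt8, which makes the galactolipids of myelin, -0.26 and 0.68, and both rose at 10 days (adjusted p = 0.0335 and 0.0469). Mbp, myelin basic protein, was at 12.67 and 11.06 in the 24 h controls, 12.29 and 10.78 with FGF9 for 24 h, 12.01 and 10.93 in the 10-day controls and 12.53 and 10.93 with FGF9 for 10 days. Its effects of -0.33 and 0.26 passed at neither time, and the difference was 0.59 ± 0.24 (adjusted p = 0.379). The AA1 pair did not move, and a second array feature of Mbp went the other way, with effects of 0.28 and -0.20 and a difference of -0.47; the mean of both features gave 0.06. For Mbp the direction is thus not settled.

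Among genes of newly forming oligodendrocytes, Bcas1 stood at 10.06 and 9.88 in the 24 h controls, 9.82 and 9.07 with FGF9 for 24 h, 9.32 and 8.52 in the 10-day controls and 10.27 and 10.32 with FGF9 for 10 days. Enpp6, a choline phosphodiesterase, was at 8.45 and 8.93 in the 24 h controls, 8.28 and 8.27 with FGF9 for 24 h, 8.87 and 7.01 in the 10-day controls and 9.87 and 8.95 with FGF9 for 10 days. In both genes the 24 h FGF9 arrays were below their controls and the 10-day ones 0.95 or more above theirs, and both rose at 10 days (adjusted p = 0.0359 and 0.0325). Gpr17, a receptor that marks the step before maturation, had effects of -0.50 and 0.72, and the latter did not pass (adjusted p = 0.0593). Among precursor genes, the proteoglycan Cspg4 was at 6.70 and 6.96 in the 24 h controls, 6.79 and 6.78 with FGF9 for 24 h, 6.24 and 7.42 in the 10-day controls and 7.89 and 9.18 with FGF9 for 10 days. It was late only by size, with 24 h effects under 0.2 in size and 10-day effects over 1.6, and a difference of 1.75 ± 0.20 (adjusted p = 0.109). Sulf2, which trims sulphates from heparan sulphate, a cofactor of FGFs, had effects of -0.20 and 1.51 (adjusted p for the difference = 0.237). Adamts4, a proteoglycan-cleaving protease that oligodendrocytes make, had 0.04 and 1.74 (adjusted p for the difference = 0.156).

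FGF receptors and ligands did not move together. Fgfr3 stood at 9.75 and 9.10 in the 24 h controls, 9.45 and 8.39 with FGF9 for 24 h, 8.91 and 8.55 in the 10-day controls and 9.99 and 10.06 with FGF9 for 10 days. It was lower with FGF9 in both 24 h pairs and higher in both 10-day pairs, with a difference of 1.80 ± 0.25 (adjusted p = 0.165), and it rose at 10 days (adjusted p = 0.022). Fgfrl1, a receptor relative with no kinase domain, had effects of -0.23 and 1.44. For Fgfr1 the effects were 0.12 and 0.51 and for Fgfr2 -0.30 and 0.10, and none of these passed. The rat Fgf9 gene, distinct from the added human protein, was at 7.25 and 8.34 in the 24 h controls, 7.04 and 8.11 with FGF9 for 24 h, 8.26 and 8.08 in the 10-day controls and 6.97 and 7.32 with FGF9 for 10 days. It fell at 10 days by 1.03 (adjusted p = 0.0291), and its difference was -0.81 ± 0.24 (adjusted p = 0.28). Fgf14, an intracellular relative that binds neuronal sodium channels, fell at 10 days by 1.26, and Fgf2 rose by 1.19 (adjusted p = 0.0173 and 0.0299).

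**Figure D4:**
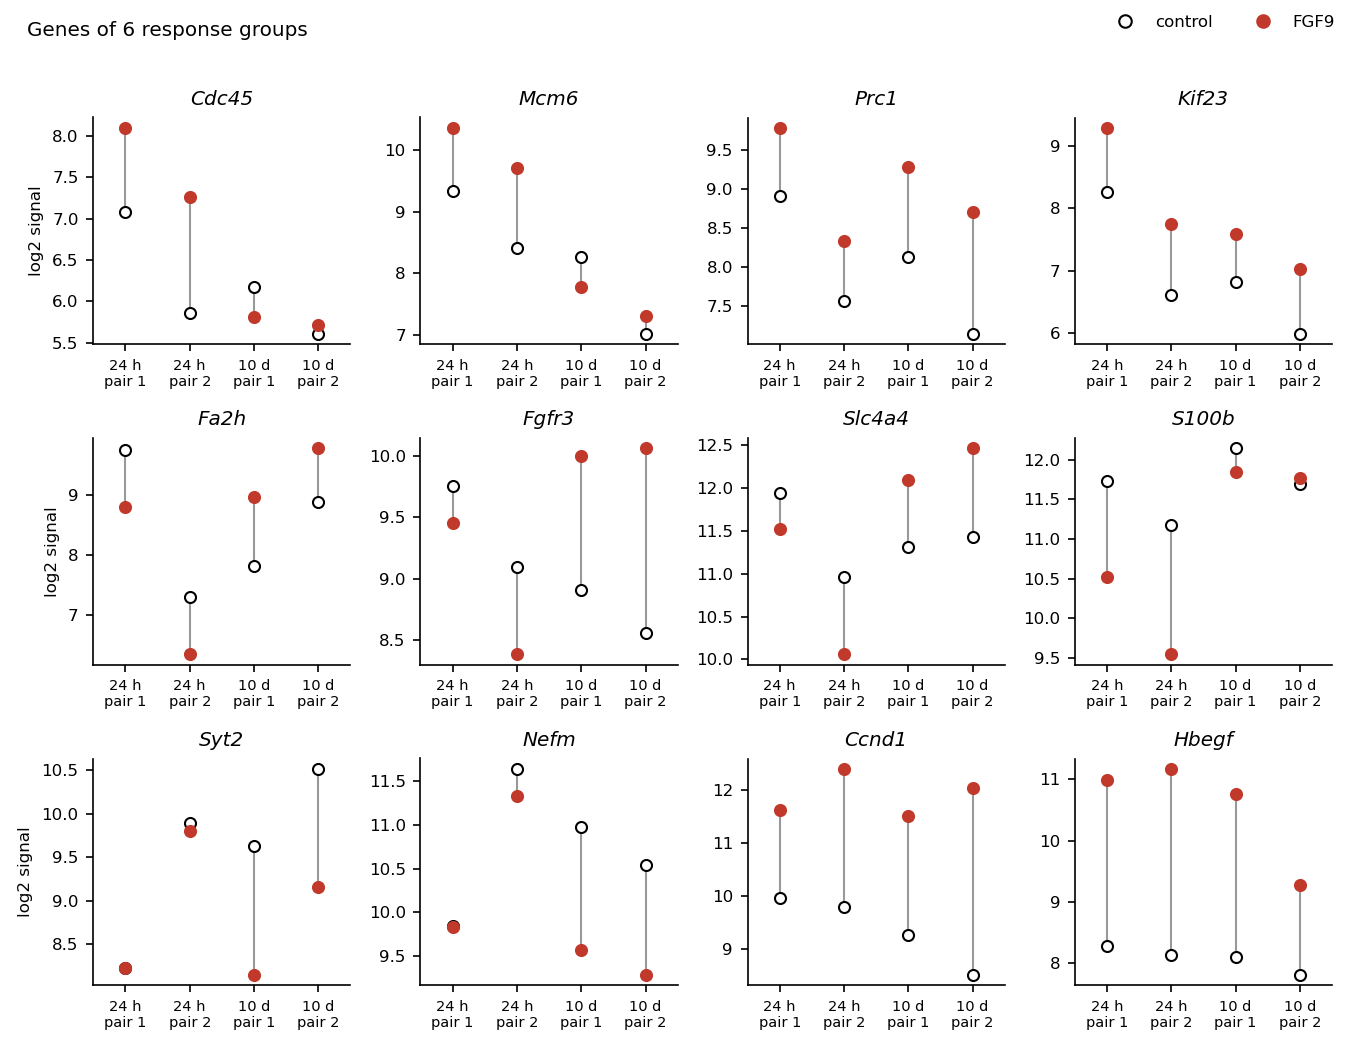
Log2 signal of 12 genes from 6 response groups, with 1 open circle (control) and 1 filled circle (FGF9) per pair, joined by a line. Cdc45 and Mcm6 separate at 24 h, Prc1, Kif23, Ccnd1 and Hbegf at both times, Syt2 and Nefm mainly at 10 days, and Fa2h, Fgfr3 and Slc4a4 turn from lower to higher, while S100b separates at 24 h.

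Many neuronal genes fell with FGF9 at 10 days. Of 38 cytoskeleton and synapse genes 21 fell and 0 rose at 10 days, against 3.31% and 3.12% of all genes. The medians were -0.25 at 24 h and -0.77 at 10 days, and the median difference was -0.55 (-0.44 within CL2). In 29 both 10-day effects were below both 24 h ones and in 0 above, against 21.5% and 23.3% of all genes. In all 4 pairs 32 were lower, as were 2050 of all genes (14.1%). None passed for the difference, with 19 lower and 0 higher at an unadjusted p under 0.05, against 5.29% and 7.58% of all genes. The list's mean level was 9.80 and 10.67 in the 24 h controls, 9.65 and 10.34 with FGF9, 9.99 and 10.92 in the 10-day controls and 9.24 and 10.07 with FGF9. The FGF9 array was the lower within every pair. The controls of both times spanned a similar range, but pair numbers do not join the times. Within CL2 the control was at 10.67 at 24 h and 9.99 at 10 days. How much of the lower level with FGF9 is loss of neurons was not tested.

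Syt2, a calcium sensor of transmitter release, stood at 8.23 and 9.89 in the 24 h controls, 8.23 and 9.80 with FGF9 for 24 h, 9.63 and 10.52 in the 10-day controls and 8.15 and 9.15 with FGF9 for 10 days. Nefm, the medium neurofilament chain of axons, was at 9.84 and 11.65 in the 24 h controls, 9.83 and 11.33 with FGF9 for 24 h, 10.98 and 10.54 in the 10-day controls and 9.57 and 9.28 with FGF9 for 10 days. In both genes the 24 h pairs moved by under 0.5 and the 10-day FGF9 arrays were over 1 unit below their controls, with differences of -1.37 ± 0.19 and -1.17 ± 0.21 (adjusted p = 0.156 and 0.226). The heavy neurofilament chain Nefh fell at 10 days by 1.19 and the neuronal RNA-binding protein Elavl2 by 1.38 (adjusted p = 0.0173 and 0.0163), against 24 h effects of -0.10 and -0.27. These 4 genes were late only by size.

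Ion channel and receptor genes gave nearly the same picture, with 22 of 42 falling and 0 rising at 10 days, against 3.31% and 3.12% of all genes. Their medians were -0.29 and -0.82, with a median difference of -0.60 (-0.39 within CL2). The glutamate receptor subunit Grin2b fell by 1.36 and the axonal sodium channels Scn1a and Scn2a by 1.12 and 1.25 at 10 days (adjusted p = 0.0173, 0.021 and 0.0173), with 24 h effects of -0.33, -0.12 and -0.37. Against the same 3.31% and 3.12% of all genes, 8 of 24 transmitter synthesis and transport genes fell and 1 rose at 10 days. They covered inhibitory and excitatory neurons: the GABA enzyme Gad2 fell by 1.12, the glycine transporter Slc6a5 by 1.07 and the vesicular glutamate transporter Slc17a6 by 0.93 (adjusted p = 0.021, 0.0199 and 0.0295).

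Motile cilia genes, which mark ependymal cells, were lower at both times, with medians over 46 genes of -0.29 and -0.75, but the pairs were unlike. At 10 days the median was -0.47 in pair 1 and -1.29 in the AA1 pair, whose control had the highest mean level of the list (7.40 against 6.24 to 6.47 in the other controls), and the median difference was -0.55 over all pairs, -0.05 without the AA1 pair and -0.05 within CL2. Of 46 genes 11 fell at 10 days, 12 passed for the mean effect as lower and 32 were lower in all 4 pairs. Over all genes these shares were 3.31%, 3.39% and 14.1%. The list was dim, with 4 of the 46 above the median gene in all 4 control arrays, against 6202 of all 14506 genes. Spag6l, a part of the ciliary axoneme, stood at 7.74 and 7.34 in the 24 h controls, 6.74 and 6.02 with FGF9 for 24 h, 7.60 and 9.96 in the 10-day controls and 5.92 and 7.40 with FGF9 for 10 days. Every FGF9 array was about 1 unit or more below its own control, with a mean effect of -1.64 (adjusted p = 0.0153). Spaca9 had 24 h effects of both pairs above 0 and 10-day effects below -1.3, a difference of -1.62 ± 0.19 (adjusted p = 0.109).

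Reactive astrocyte and acute phase genes differed among themselves. Of 33 measured 7 rose and 1 fell at 10 days, against 3.12% and 3.31% of all genes. The median difference was 0.46 over all pairs but 0.04 without the AA1 pair and -0.22 within CL2. Their 10-day medians were 0.09 in pair 1 and 0.82 in the AA1 pair, whose control had the lowest mean level of the list (7.69 against 8.57 to 8.88 in the other controls). Beside Serpina3n and Lcn2, the hyaluronan receptor Cd44 was at 9.87 and 9.41 in the 24 h controls, 10.79 and 11.15 with FGF9 for 24 h, 10.04 and 8.00 in the 10-day controls and 12.17 and 10.62 with FGF9 for 10 days. It was higher with FGF9 in every pair, with a mean effect of 1.85 (adjusted p = 0.0143) and a difference of 1.05 ± 0.33 (95% interval 0.24 to 1.87, and 0.39 within CL2). Hspb1, a small heat shock protein, was lower in both 24 h pairs and higher in both 10-day pairs, at 12.42 and 12.32 in the 24 h controls, 11.30 and 10.90 with FGF9 for 24 h, 12.60 and 10.07 in the 10-day controls and 13.07 and 12.70 with FGF9 for 10 days. Its 10-day pairs moved by 0.47 and 2.63, and neither the 10-day effect (adjusted p = 0.113) nor the difference (adjusted p = 0.239) passed.

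Of the matrix and protease genes none passed for the difference. Over 42 matrix genes the medians were -0.14 and 0.28 with a median difference of 0.46 (0.27 within CL2). In 18 both 10-day effects were above both 24 h ones and in 2 below, against 23.3% and 21.5% of all genes. Postn, the matrix protein periostin, stood at 9.37 and 7.75 in the 24 h controls, 9.58 and 8.89 with FGF9 for 24 h, 7.52 and 5.74 in the 10-day controls and 11.09 and 9.40 with FGF9 for 10 days. The 10-day FGF9 arrays were over 3.5 units above their controls and the 24 h ones by 0.21 and 1.14, with a difference of 2.94 ± 0.33 (adjusted p = 0.109). Over 37 protease and inhibitor genes 8 rose and 0 fell at 10 days, against 3.12% and 3.31% of all genes. Their median difference was 0.22, and -0.05 within CL2. In 9 of the 37 both 10-day effects were above both 24 h ones and in 4 below, against 23.3% and 21.5% of all genes. The 9 of 37 is near the share over all genes. Timp4, a metalloproteinase inhibitor, was lower at 24 h and higher at 10 days in every pair, -0.48 and 1.83 (adjusted p for the difference = 0.109), while Timp1, of the same family, rose in the mean of both times (mean effect 1.64, adjusted p = 0.016). Htra1, a secreted serine protease, had 0.13 and 1.46 and rose at 10 days (adjusted p = 0.0173).

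Car9 was the single glycolysis and hypoxia gene to pass. Over the 37 genes of that list 6 rose and 0 fell at 10 days, against 3.12% and 3.31% of all genes. The median difference was 0.24 (0.21 within CL2). Both 10-day effects were above both 24 h ones in 17 and below in 2, against 23.3% and 21.5% of all genes. Vegfa, the vascular growth factor, stood at 7.93 and 8.86 in the 24 h controls, 8.12 and 9.27 with FGF9 for 24 h, 10.06 and 10.27 in the 10-day controls and 11.36 and 11.73 with FGF9 for 10 days. It was higher in all 10-day arrays than in the 24 h ones, and FGF9 raised it at 10 days by 1.38 (adjusted p = 0.0173) against a 24 h effect of 0.31. Ddit4, an inhibitor of mTOR induced by stress and low oxygen, went from -0.79 to 0.91. Egln3, an oxygen-sensing prolyl hydroxylase, went from -0.40 to 0.81 (adjusted p for the differences = 0.185 and 0.239). The median 24 h effect of the list was 0.05.

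The largest difference of all those named belonged to H19, a maternally expressed imprinted RNA, and did not pass. It stood at 10.96 and 10.20 in the 24 h controls, 10.82 and 9.42 with FGF9 for 24 h, 9.20 and 6.12 in the 10-day controls and 12.91 and 12.35 with FGF9 for 10 days. The FGF9 arrays were lower than their controls at 24 h and the highest of all at 10 days, but the 10-day controls lay more than 3 units apart, and the difference of 5.44 ± 0.77 had an adjusted p of 0.173 and a 95% interval of 3.54 to 7.34. Within CL2 it was 4.50. Meg3, an imprinted RNA abundant in neurons, fell at 10 days by 1.79 (adjusted p = 0.0173). Hsd11b1, which regenerates active glucocorticoid, had effects of -0.02 and 3.19 (adjusted p for the difference = 0.2), and Tagln, an actin-binding protein of contractile cells, of -1.03 and 1.18 (adjusted p for the difference = 0.124). The class opposite by size, in which both pairs move by at least 0.5 at each time, held 12 genes. Of these, 10 were lower and then higher (0.0689%) and 2 higher and then lower (0.0138%). Among the latter was the mitochondrial tyrosyl-tRNA synthetase Yars2 at 0.86 and -0.70, named after its values were seen.

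**Figure D5:**
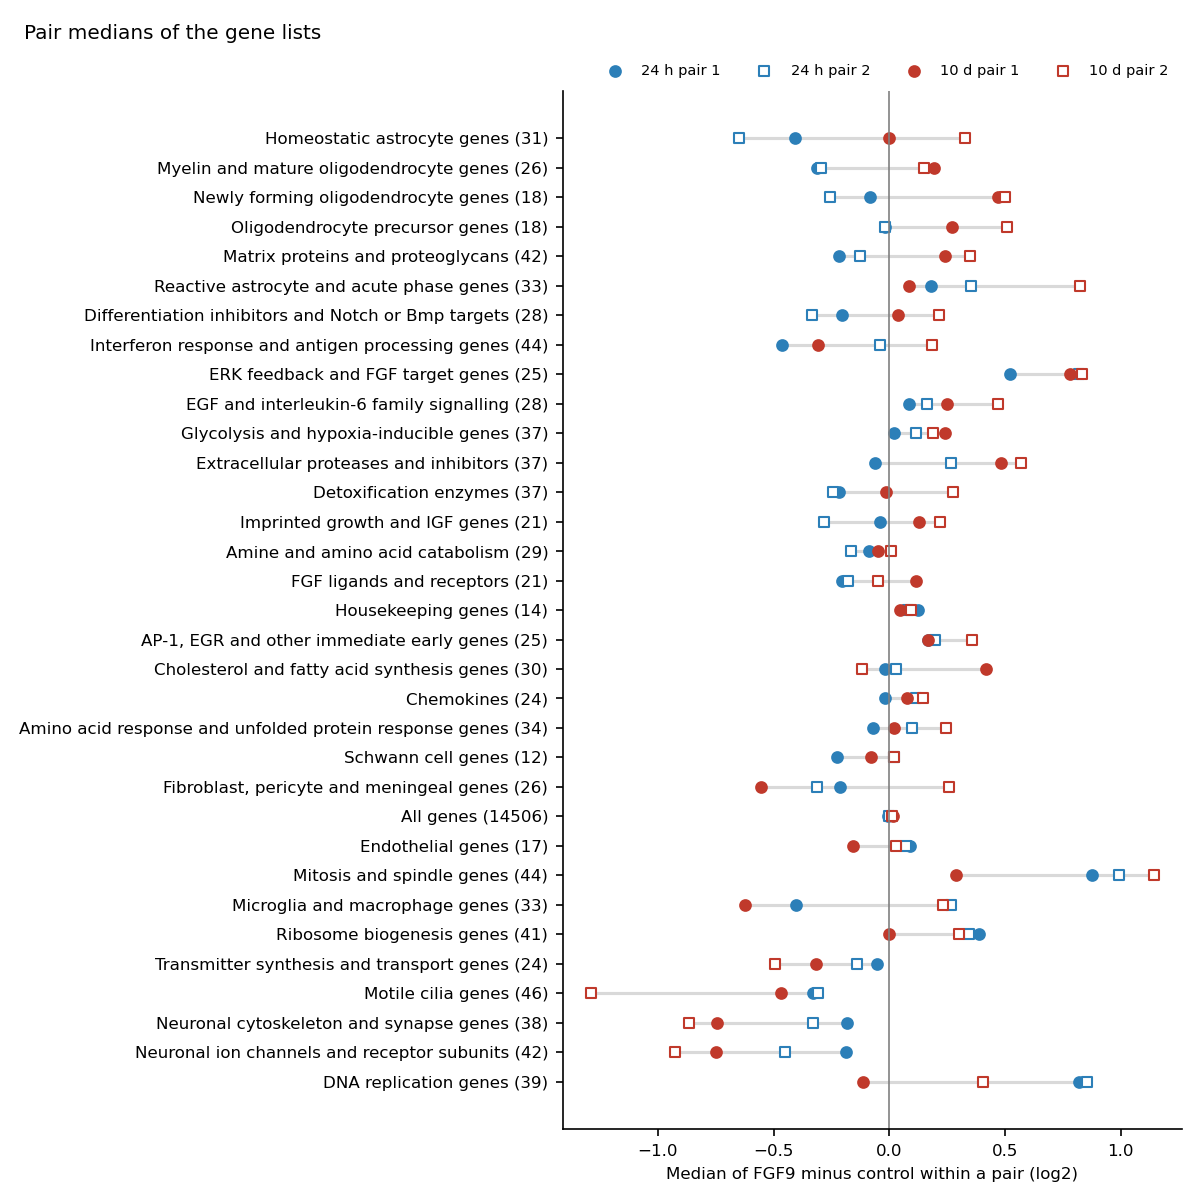
Median FGF9 effect of each of the 32 lists and of all genes within each pair (log2); circles are pair 1 and squares pair 2, blue for 24 h and red for 10 days, and the number of measured genes is in brackets. Lists are ordered by the median difference, from replication (-0.72) to astrocyte genes (0.77). In the cilia, mitosis, microglia, reactive and fibroblast lists, among others, the squares and circles of a time lie apart.

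The other lists held no gene whose difference passed. Housekeeping genes had medians of 0.11 and 0.05, and the median difference was 0.04 for 24 chemokines (-0.06 within CL2), 0.04 for 34 amino acid and unfolded protein response genes and 0.08 for 30 cholesterol and fatty acid synthesis genes (0.34 within CL2). For 33 microglial genes the pair medians were -0.40 and 0.27 at 24 h and -0.62 and 0.23 at 10 days, with a median difference of -0.18 that was -0.79 within CL2. For 44 interferon and antigen genes they were -0.46 and -0.04, then -0.31 and 0.18, and the median difference was 0.32, or -0.06 within CL2. Whether microglial content moved with the reactive and interferon lists was not tested. For 26 fibroblast and pericyte genes the median difference was 0.01, but 0.49 without 10-day pair 1, -0.25 without the AA1 pair and -0.30 within CL2. For 12 Schwann cell genes it was 0.01, but 0.25 without 24 h pair 2, -0.11 without 24 h pair 1 and -0.06 within CL2. For 17 endothelial genes it was -0.12, and -0.26 without the AA1 pair and -0.36 within CL2. For 28 differentiation inhibitors and Notch or Bmp targets the pair medians were -0.20 and -0.33 at 24 h and 0.04 and 0.21 at 10 days, and the median difference was 0.43 (0.33 within CL2). Both 10-day effects were above both 24 h ones in 13 and below in 1, against 23.3% and 21.5% of all genes. The median difference was 0.21 for 37 detoxification enzymes (0.08 within CL2), 0.15 for 21 imprinted growth and IGF genes (0.14 within CL2) and 0.13 for 21 FGF ligands and receptors (0.26 within CL2).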

How the data were processed

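RNA of 8 cultures was hybridised to Rat Gene 1.0 ST arrays from Affymetrix. The authors' deposited table gives 1 log2 value per feature and array; the log2 scale was read from the values (3.61 to 14.6) and no label states it. Per the submitters' processing notes the software was Partek 6.5 with GCRMA, which corrects background and condenses probes to features; other steps: not given in the sources used here. Values were used as deposited, with array medians of 6.62 to 6.73, and 8 arrays limit the precision.

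The platform annotation gave 1 symbol to 15310 of 29214 features (15279 matched RefSeq by Entrez identifier, 0 symbols changed), several to 323 and none to 13581. For 527 genes with more than 1 feature the brightest on average was kept, leaving 14506 genes. Each contrast was fitted in limma 3.58.1 (R 4.3.3) on all 8 arrays with the pair as a fixed block and Benjamini-Hochberg adjustment at 0.05; the pipeline was tested on simulated data. The pairing comes from the replicate numbers of the titles and a shared name prefix; deviations of same-numbered arrays from their group means correlated at 0.757 at 24 h and 0.819 at 10 days. The fit has 2 residual and 3.96 prior degrees of freedom.

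The comparison, the members and the 32 gene lists were chosen with earlier results of these data known. Named genes are the 15 largest passing differences per direction, 6 per class and direction, up to 5 per list by p of the difference and 3 by p of the mean effect, and a fixed set of FGF, glial and cytokine genes. Exceptions named after their values were seen are Agmo, Crym, Lingo3, Ccne2, Gmnn and Yars2, and Mcm6, taken for its promoter. Classes by size, signs and overlap of pair effects, values within CL2 and an adjustment over all features were added after the data were seen. Other alternatives were no replicate block, a random block, quantile normalization, median centring, a filter on dim genes, the mean of a gene's features, eBayes with trend and robust settings, other class limits and each pair left out. Promoters come from RefSeq tables, which held 11968 of the genes.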

Additional observations from a re-analysis of the deposited data

Results flagged for a closer look

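A difference of FGF9 effects between 10 days and 24 h that passed its test marked 7 genes, with values of 4.88 for Serpina3n, 3.84 for Car9, 3.3 for Sectm1b, 3.28 for Gfral, 3.13 for Fndc3c1, 3.03 for Chi3l1 and 2.52 for Gja5.

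In 35 more of the genes named, every pair moved one way at 24 h and every pair the other way at 10 days; each difference was tested and did not pass after adjustment. Among genes that turned from lower to higher, the difference was 5.44 for H19, 3.61 for Lcn2, 2.82 for Hspb1, 2.6 for Crym, 2.31 for Timp4, 2.25 for Agmo, 2.21 for Tagln, 1.7 for Ddit4 and 1.21 for Egln3. Oligodendrocyte genes of this kind were Fa2h at 1.98, Bcas1 at 1.9, Enpp6 at 1.89, Sulf2 at 1.7, Gpr17 at 1.23, Pllp at 1.13, Ugt8 at 0.938 and Mbp at 0.593, though the 10-day AA1 pair of Mbp moved by only 0.0011 and its second array feature had a difference of -0.47. Receptors and astrocyte genes of this kind were Fgfr3 at 1.8, Slc7a10 at 1.76, Fgfrl1 at 1.68, Slc4a4 at 1.58 and Mertk at 1.3. Genes of the nets around neurons and of Notch or Bmp signalling were Bcan at 1.56, Dll3 at 1.22, Tnr at 1.14, Id1 at 1.11 and Notch1 at 0.956. Genes that turned from higher to lower were Spaca9 at -1.62, Yars2 at -1.56, Adamts9 at -1.34, Prim1 at -1.25, Plk4 at -1.24, Dut at -1.04, Pcna at -0.934 and Nop56 at -0.73. Not every such turn has a sizeable effect at both times. At 10 days the FGF9 arrays of Pcna lay only slightly below their controls, as did those of Lcn2 at 24 h.

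List medians turned from below 0 in both 24 h pairs to above 0 in both 10-day pairs for 6 lists, and these differences were not tested. The median differences were 0.66 for myelin genes, 0.64 for newly forming oligodendrocyte genes, 0.597 for oligodendrocyte precursor genes, 0.463 for matrix genes, 0.432 for differentiation inhibitors and 0.153 for imprinted growth and IGF genes. Some of these turns start or end near 0. For precursor genes both 24 h pair medians were -0.02, with 6 genes higher and 6 lower in both 24 h pairs. The 24 h pair 1 median was -0.04 for imprinted growth and IGF genes. For differentiation inhibitors the 10-day pair 1 median was 0.04.

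Outside the genes analysed, 385 of the 13904 features without a single gene symbol passed for the 10-day effect when all features were adjusted together. Over all 29214 features 1043 passed, so these features did not pass more often than the rest.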

How the results depend on the processing

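With no replicate block the difference, the 10-day effect and the mean effect passed in 0, 0 and 0 genes (276, 816 and 770 at an unadjusted p under 0.05), so the late only, opposite, grows and both-times classes held 0, 0, 0 and 0; the smallest adjusted p of a difference was then 0.503, and the median residual SD 0.3 against 0.145 with the block. With the pair as a random replicate block the 24 h effect passed in 1 gene, the 10-day effect in 605, the mean effect in 547 and 2 genes were opposite; eBayes with trend and robust settings also gave 2 opposite genes. Class limits of 0.7 and 0.35 put 614 genes in the both-times class. With all 29214 features in the fit and the adjustment 0 genes or features passed for the difference (smallest adjusted p 0.0843, 3274 at an unadjusted p under 0.05). Both the fit and the number of tests changed in this setting, and which of them mattered was not tested. Leaving out each pair in turn, which leaves that time with 1 pair assumed to vary like the others, gave 0 to 322 passing differences, 0 to 237 24 h effects, 469 to 1506 10-day effects, 48 to 1814 mean effects, and 0 to 6 early only, 0 to 215 late only, 0 to 62 opposite, 0 to 28 growing and 38 to 487 both-times genes. Quantile normalization, median centring, the filter on dim genes and the mean of a gene's features each called the same 7 genes, with adjusted p from 0.0274 to 0.044. Over 108 named genes, 1161 alternative values were counted as unchanged, 23 no longer passed and 47 passed where they had not. Another 54, all from the pairs of name prefix CL2 alone and with no test, moved by more than the spread between pairs. Outside CL2, unchanged means the same direction and side of the threshold. Within CL2 it means a move no larger than that spread. A turn of sign within CL2 was counted as a reversal only for the 7 genes that passed, so turns in other genes are not in that count. In all, 8 values were counted as reversed, all where a pair was left out. Over the pairs left out the difference ran from -0.92 to 1.21 for Plet1, -0.94 to 0.15 for Lif, -1.61 to 0.65 for Ccl2, -0.32 to 0.6 for Prodh and -0.15 to 0.36 for Id3. The cause was not tested. No detection calls were used: the 5th percentile of an array lay at 4.85 to 4.98, and changes of genes near that level may be understated.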

Other observations

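Of 21 imprinted growth and insulin-like growth factor genes 4 rose and 2 fell at 10 days (limma, Benjamini-Hochberg adjusted p under 0.05), against 3.12% and 3.31% of all genes. For the difference 0 passed. Igfbp3, which binds these factors in the medium, had effects of 0.92 at 24 h and 2.66 at 10 days, Igfbp4, of the same family, 0.18 and 1.39, and the receptor Igf1r 0.20 and 0.90. All 3 rose at 10 days (limma, adjusted p = 0.0107, 0.0222 and 0.0272), and their differences of 1.74 ± 0.27, 1.21 ± 0.27 and 0.70 ± 0.20 did not pass (adjusted p = 0.209, 0.239 and 0.266). Within CL2 the differences were 2.17, 0.75 and 0.87. Igfbp5, a further binding protein, was lower in every pair, with effects of -0.76 and -1.20 and a fall at 10 days that passed (adjusted p = 0.0344); its difference was -0.44 ± 0.30 (adjusted p = 0.59), or 0.14 within CL2.

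Genes of the nets around neurons and of Notch and Bmp signalling included several that were lower at 24 h and higher at 10 days in every pair. The brain proteoglycan Bcan had effects of -0.77 and 0.79 and Tnr, tenascin R, -0.57 and 0.57. The receptor Notch1 had -0.47 and 0.48, the ligand Dll3 -0.42 and 0.79, and Id1, a Bmp-induced inhibitor of differentiation factors, -0.52 and 0.59. None of these 5 passed at either time or for the difference (adjusted p of the differences 0.239, 0.226, 0.246, 0.332 and 0.275); within CL2 the differences of Dll3 and Id1 were 0.47 and 0.65. Id3, of the same family as Id1, fell at 10 days by 1.02 (adjusted p = 0.0293) against a 24 h effect of -1.12, and Nrarp, a Notch target, rose at 10 days by 2.03 (adjusted p = 0.022) against 0.48.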
